A study of Caenorhabditis elegans with 2 samples.

Results

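Of 6626 reproducible peaks of tagged NHR-129 in L2 larvae of Caenorhabditis elegans, 724 had autosomal summits in promoter windows of both strands. Such windows are set by distance to annotated starts, and promoter function was not measured. The promoter window of a gene ran from 1000 bp before its start to 100 bp after it, and a peak was taken when its summit lay in the windows of protein-coding genes on the plus and on the minus strand, in the ce11 assembly with Ensembl gene models. These peaks are called shared peaks here, and the 1709 autosomal peaks with a start of 1 strand only in reach are called single-strand promoter peaks. The animals were of strain OP339, with the allele unc-119(ed3) and the integrated transgene wgIs339 that encodes NHR-129 joined to enhanced green fluorescent protein. Males and females were pooled and whole animals were used, so the values average over all tissues, and the age is given only as the larval stage. There was 1 group with 2 biological replicates and no second condition and no strain without the tag. Binding that does not depend on the receptor was therefore not separated from binding that does.

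Divergent genes lie head to head, transcribed away from each other, and the DNA between their starts can hold regulatory elements for either gene or for both. The worm genome is compact, so such stretches are often short. Nuclear hormone receptors are zinc-finger transcription factors, a family that is greatly enlarged in nematodes, and most of its worm members have no known ligand. Many worm transcripts receive a spliced leader in place of their original 5′ end. For those genes the annotated start is the splice acceptor and not the site where transcription begins.

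The DNA between the starts is shown first for 4 shared peaks of high signal with a short space, free of exons, on the chromosomes III, IV and V. Each is read on the plus strand from the base after the minus-strand gene's start to the base before the plus-strand gene's start, and the 21 bases at the summit are in capitals. They are reference bases of ce11, from RefSeq's copy of the assembly.
C49G7.10/irg-2 (chrV:4042022-4042180, plus strand): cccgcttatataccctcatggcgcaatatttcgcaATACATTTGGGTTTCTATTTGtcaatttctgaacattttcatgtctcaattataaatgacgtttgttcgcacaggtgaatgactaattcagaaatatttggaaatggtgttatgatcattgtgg
ctf-4/eef-1G (chrV:10965540-10965718, plus strand): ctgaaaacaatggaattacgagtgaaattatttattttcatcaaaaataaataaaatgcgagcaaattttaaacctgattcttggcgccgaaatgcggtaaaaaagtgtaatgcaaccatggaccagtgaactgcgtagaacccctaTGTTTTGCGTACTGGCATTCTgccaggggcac
Y62E10A.20/Y62E10A.23 (chrIV:13386092-13386323, plus strand): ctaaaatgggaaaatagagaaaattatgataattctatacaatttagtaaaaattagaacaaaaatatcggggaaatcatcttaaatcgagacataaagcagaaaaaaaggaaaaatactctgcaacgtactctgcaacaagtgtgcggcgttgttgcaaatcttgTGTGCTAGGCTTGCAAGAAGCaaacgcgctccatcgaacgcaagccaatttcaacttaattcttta
polh-1/rps-22 (chrIII:1950270-1950534, plus strand): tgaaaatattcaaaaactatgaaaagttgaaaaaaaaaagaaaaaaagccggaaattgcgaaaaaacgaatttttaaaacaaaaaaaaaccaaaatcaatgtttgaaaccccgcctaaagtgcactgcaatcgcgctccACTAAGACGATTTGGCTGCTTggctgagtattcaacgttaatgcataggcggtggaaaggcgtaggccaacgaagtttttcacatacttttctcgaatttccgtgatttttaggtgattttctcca

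These 4 spaces show how the summit can lie. At C49G7.10/irg-2, next to the infection response gene irg-2, the summit was 46 bp from the minus-strand start and 114 bp from the other. At polh-1/rps-22, the gene of a translesion DNA polymerase facing that of a small-subunit ribosomal protein, it lay 150 and 116 bp away, near the middle. At ctf-4/eef-1G it lay 22 bp from the start of the elongation factor gene and 158 bp from ctf-4, a gene of sister chromatid cohesion. The letters of a spliced-leader acceptor, TTTCAG, were searched before each start. Over all shared peaks they stood directly before the annotated start in 320 of their 1414 nearest genes (22.6%, 95% Wilson interval 20.5 to 24.9) and in 2117 of all 17242 autosomal coding genes (12.3%). The larger set includes genes without a divergent partner, so these shares are not a like comparison. The letters stood before both starts at 35 shared peaks and before 1 start only at 259. Among these 259 the summit was nearer the start without them in 166 (64.1%, interval 58.1 to 69.7), at a median of 195 bp, against 275 bp to the start with them. Intervals on shares cover counting error only, and neighbouring peaks of the same libraries are not independent.

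Shared stretches were small and dense in summits. The windows of both strands covered 1.69 Mb, or 2.05% of the autosomes, and held 428 summits per Mb. Windows of 1 strand covered 15.3 Mb with 111 summits per Mb, and the rest of the autosomes had 42.6 per Mb. Shared stretches were thus 3.85 times as dense as the windows of 1 strand. On chromosome X, where 39 peaks met the same rule, such stretches covered 0.582% of the chromosome and held 378 summits per Mb, against 175 per Mb in windows of 1 strand, a ratio of 2.16. Of the 2433 autosomal summits in any promoter window, 29.8% (interval 28.0 to 31.6) were shared, and of the 523 on X 7.46% (interval 5.50 to 10.03). No test was made of these differences: with 2 replicates an exact two-sided sign test cannot go below p = 0.5, and a test over peaks would take peaks of the same libraries as independent.

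A base between divergent genes is also nearer to a start on average, so densities were compared at matched distances outside gene bodies. At 0 to 50 bp from the nearer start there were 681 summits per Mb in stretches of both strands and 172 in those of 1 strand. Above 100 and up to 200 bp the densities were 875 and 300.8, the highest of each kind. Above 400 and up to 500 bp they were 134 and 108, so the ratio ran from 3.96 next to the start down to 1.24. The orientation of neighbouring genes gave the same order. However, a divergent space holds a start at each end and a same-strand space only 1. The number of starts was not evened out in this comparison or in that by distance. Of 2319 spaces of at most 2000 bp between divergent coding genes, 32.3% (interval 30.5 to 34.3) held a summit. Of 6480 spaces between genes on the same strand 10.2% (interval 9.49 to 10.96) did, and of 1881 between convergent genes, which hold no start, 1.49% (interval 1.03 to 2.14). For spaces above 300 and up to 600 bp these shares were 43.3%, 13.4% and 1.77%, and the divergent share was the highest in each of the other length classes as well.

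**Figure D1:**
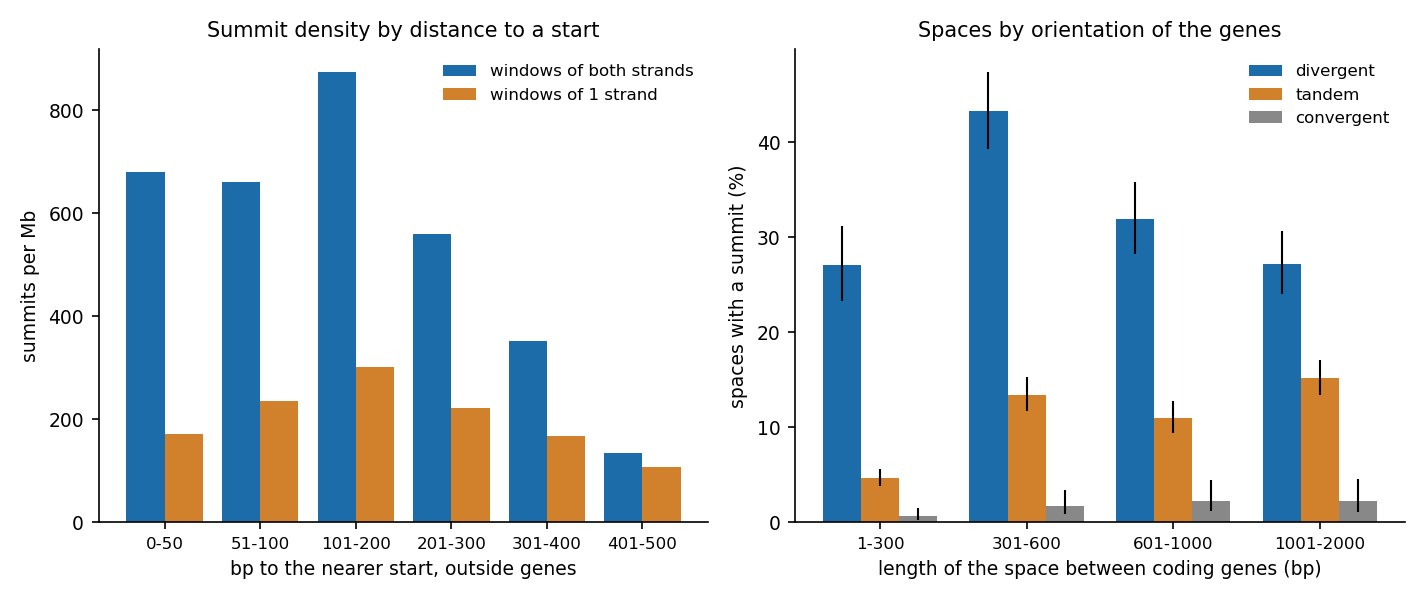
Left, summits per Mb by distance in bp to the nearer coding start, outside gene bodies, in stretches with windows of both strands and of 1 strand. Right, share in percent of spaces between neighbouring coding genes that hold a summit, by length and orientation, with 95% Wilson intervals. Stretches of both strands are denser in every distance class, from 681 against 172 per Mb at 0 to 50 bp to 134 against 108 above 400 bp. They have starts of both strands in reach, and the number of starts is not evened out.

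Most divergent pairs had no shared peak. Of 2382 autosomal pairs with 1 to 2000 bp between their starts, 700 (29.4%, interval 27.6 to 31.2) had a summit in the shared window. Another 348 pairs had only a call of the relaxed pooled list there, below the reproducibility threshold, and 1334 had no call. The strongest 6626 calls of replicate 1 alone marked 28.6% of pairs, and those of replicate 2 alone 28.9%. By spacing, the share was 20.8% of the 53 pairs with 1 to 100 bp between starts and 49.0% of the 204 pairs with above 300 and up to 400 bp. It was 30.1% of those above 750 and up to 1000 bp and 4.73% of those above 1500 bp. Above 900 bp the windows no longer cover the whole space, so part of the low shares at long spacings is built into the rule. Up to 900 bp the shared window grows with the spacing, so part of the rise from the shortest spacings is built in as well. Per Mb, divergent spaces between genes held 1409 summits at 1 to 300 bp and 968 above 300 and up to 600 bp. The replicates differed most at short spacings, with 18.9% and 24.5% of pairs at 1 to 100 bp and 29.1% and 24.3% above 100 and up to 200 bp, so the order of these classes is not settled. Above 300 and up to 400 bp they gave 47.1% and 48.5%, and above 1000 and up to 1500 bp 15.6% and 14.03%.

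**Figure D2:**
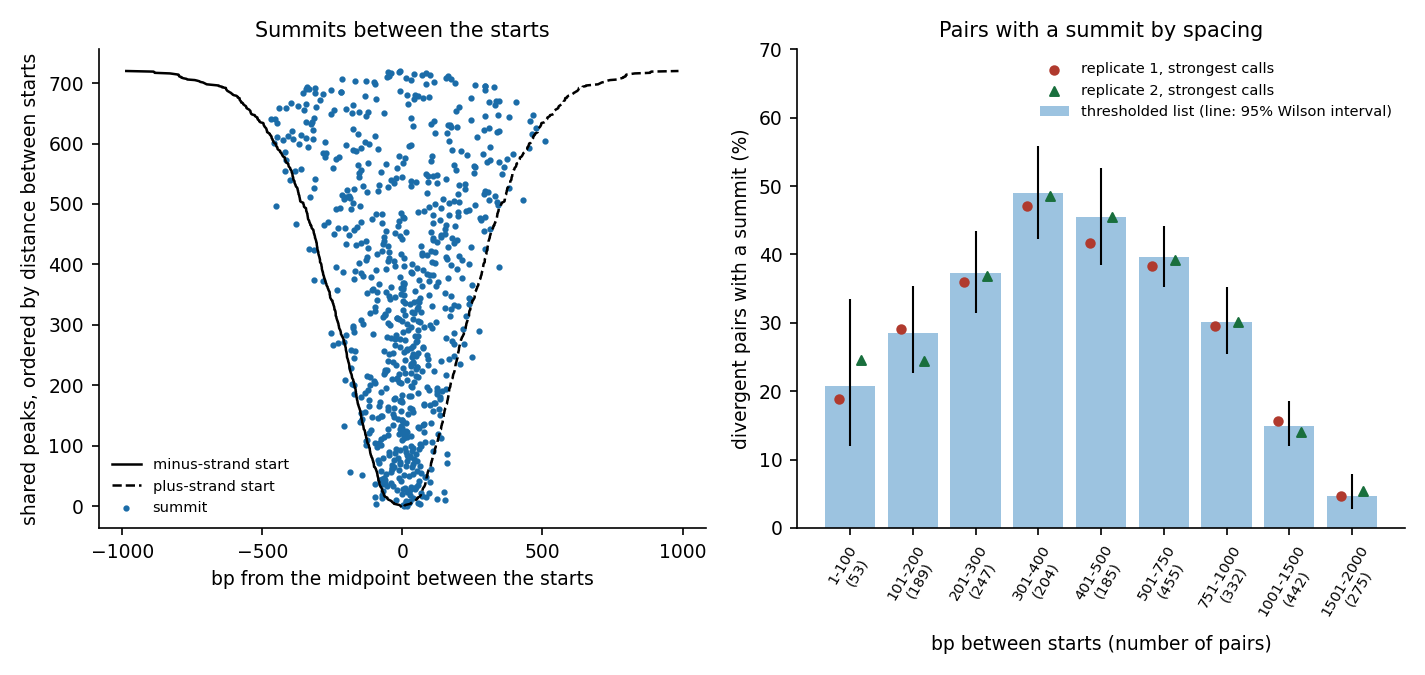
Left, each shared peak with at least 1 bp between its starts is a row ordered by that distance, the x axis gives bp from the midpoint of the space, the lines are the starts and the points the summits. Right, share in percent of divergent pairs with a summit by bp between starts, bars for the thresholded list with 95% Wilson intervals and points for each replicate's strongest calls. Summits fill the space between the starts, and the share is highest above 300 and up to 400 bp (49.0%). Shorter spacings have shorter shared windows.

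Most shared peaks lay between the starts, and in spaces of at most 900 bp more often in the central part than at the ends. The starts were a median of 528 bp apart (25th to 75th percentile 325 to 776), and 668 of the 724 summits (92.3%) were between them. The windows reach only a short way past each start, so a high share between the starts is largely built into the rule. The nearer start was a median of 140 bp away, against 242 bp for single-strand promoter peaks, and the farther start 370 bp. Having a start on each side brings the nearer one closer by itself, so the 2 medians are not a like comparison. The strands were about even, with 342 summits nearer the minus-strand start, 381 nearer the plus-strand start and 1 at equal distance. Of the 546 summits that lay inside spaces of at most 900 bp, 339 (62.1%, interval 57.9 to 66.1) were in the central 50 percent of the space. In spaces above 400 and up to 600 bp this was 72.3%, and in those of 1 to 200 bp it was 51.1%. The outermost 10ths of the space on either side together held 72 summits, and the 4 central 10ths held 290. In 112 cases (15.5%) the summit fell in an annotated exon.

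The shortest spaces were 12 bp at F32D8.14/F32D8.5 and 15 bp at F25H9.6/F25H9.7, with the next at trmt-10A/F25H8.2 (22 bp), where trmt-10A is named for a tRNA methyltransferase. The longest were 1971 bp at C13F10.7/fkb-3, with a gene of the peptidyl-prolyl isomerase family, 1776 bp at C49A1.10/clec-115 and 1771 bp at mdh-1/F46E10.3, where mdh-1 encodes malate dehydrogenase. At all 3 long spaces the summit was near the middle, where the rule confines it, 978 and 993 bp from the starts at C13F10.7/fkb-3. In 3 shared peaks the annotated starts overlapped, as at rec-1/pif-1. The 724 peaks fell in 708 distinct pairs, of which 16 held 2 peaks and none more. The pair with the strongest of these was rpl-1/Y71F9AL.9, beside a large-subunit ribosomal protein gene, with pooled signals of 412 and 63.4 at summits 202 bp apart. The next were cdc-14/ttc-4, with summits 667 bp apart, larp-5/sld-2 with 731 bp, hel-1/C26D10.4 with 600 bp and nars-1/nduf-6 with 204 bp.

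The signal of a peak is the score of the authors' caller, whose scale is unknown, and pooled scores are not set against replicate scores. Shared peaks had a median pooled signal of 144 (25th to 75th percentile 97.7 to 248), against 128 (87.7 to 198) for single-strand promoter peaks, a ratio of 1.13. In replicate 1 the medians were 78.4 and 71.7, a ratio of 1.09, and in replicate 2 they were 67.6 and 59.0, a ratio of 1.15. The strongest 1326 of all 6626 peaks held 207 shared peaks (28.6%, interval 25.4 to 32.0) and 338 single-strand promoter peaks (19.8%, interval 17.96 to 21.7), with a background of 19.5% over all autosomal peaks. At matched distance to the nearer start the ratio of pooled medians was 1.19 within 100 bp and 1.06 above 200 and up to 300 bp. The ranges overlapped widely, and the strongest single-strand promoter peak (3017) was above the strongest shared peak (1540).

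The replicates ordered the shared peaks alike. Calls of both replicates overlapped 722 of the 724 (99.7%), with a background of 99.5% over all thresholded peaks, so this share says nothing particular about shared peaks. The thresholded list was itself derived from calls in both replicates. The 2 others, C30F12.4/idhg-2 and gen-1/stt-3, had a call in replicate 2 only. Spearman's rho between the replicate signals was 0.87 over these 722 peaks and 0.83 over single-strand promoter peaks, a description with no test since peaks share libraries. The reproducibility threshold favours peaks ranked alike in both replicates, so a high rho is in part built in. Signals were higher in replicate 1 at 517 of the 722, with a median log2 ratio of 0.23 (SD 0.45). Over all thresholded peaks called in both replicates it was 5023 of 6593, with a median of 0.31 (SD 0.49). The offset is thus not particular to shared peaks. The replicate summits were a median of 13 bp apart, and more than 100 bp apart at 10 peaks. The largest difference in rank was at brc-2/T07E3.3, where brc-2 encodes the BRCA2 homologue, whose signal was 47.4 in replicate 1 but 12.4 in replicate 2. Then came bre-5/spt-5, egl-45/kcmf-1, moa-2/cdk-11.1 and the collagen pair col-117/col-3. All 5 were weak in the pooled list, with signals between 64.6 and 72.1.

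**Figure D3:**
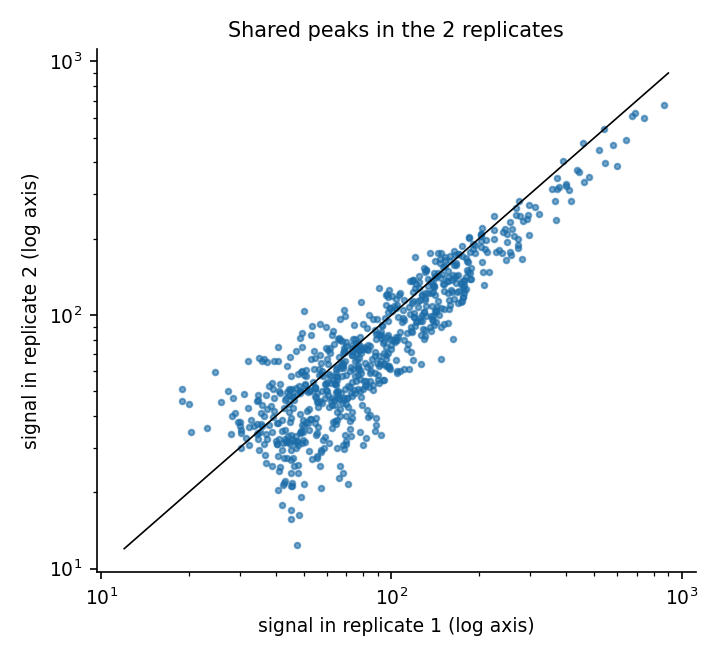
Signal of each of the 722 shared peaks called in both replicates, replicate 1 on the x axis and replicate 2 on the y axis, both log axes in units of the authors' score, with the line of equal values. The points run along the line (Spearman's rho 0.87), and 517 lie on the side of replicate 1. Of all thresholded peaks called in both replicates, 5023 of 6593 lie on that side. Some weak peaks lie far from it, such as brc-2/T07E3.3 with 47.4 in replicate 1 and 12.4 in replicate 2.

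Genes of protein synthesis stood at many of the strongest shared peaks. The strongest was C49G7.10/irg-2 on chromosome V, with signals of 868 in replicate 1 and 671 in replicate 2, and the next, F13A7.11/F13A7.12, had 739 and 600.7. At rpl-12/lin-54 the signals were 690 and 624, with the summit 24 bp from rpl-12, a large-subunit ribosomal protein gene, and 369 bp from lin-54, which encodes a DNA-binding subunit of the DREAM complex. These 3 peaks were near the top in both replicates, at ranks 14 and 17, 24 and 23, and 29 and 21.

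K01G5.10/tasp-1, with a gene for a threonine aspartase, had 675 and 610. iff-2/F54C9.14, where iff-2 encodes the translation factor eIF5A, had 646 and 489, and its summit was 61 bp from iff-2. At Y22D7AL.10/hsp-60, the mitochondrial chaperonin, the replicates gave 539 and 541, and the summit lay 247 bp from Y22D7AL.10 and 566 bp from hsp-60. The summit was thus much nearer to the partner of hsp-60 than to hsp-60 itself.

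Further ribosomal protein genes followed. rps-13/nfx-1 had signals of 578 and 469, rpl-20/Y17G9B.5 had 520 and 449, and ska-3/rps-12 had 459 and 479. ifet-1/rps-1, which joins the gene of an eIF4E-binding translational repressor to a ribosomal protein gene, had 545 and 399. In the first 2 the summit was between 160 and 286 bp from either start. At eef-1A.1/rfc-4, the gene of elongation factor 1A facing a clamp loader subunit, the signals were 480 and 352.

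The other pairs among the 20 strongest were C06B3.6/C06B3.7, nhl-2/tag-340, ctf-4/eef-1G, malt-1/ceh-38, rps-23/dpm-3, C17H12.2/vha-8, mif-4/ipla-6, Y62E10A.20/Y62E10A.23 and larp-1/wip-1. Their signals ran from 371 to 599 in replicate 1 and from 312 to 405 in replicate 2. nhl-2 encodes a cofactor of microRNA silencing, vha-8 a subunit of the vacuolar ATPase, dpm-3 a subunit of dolichol-phosphate mannose synthase and larp-1 a La-related RNA-binding protein. At malt-1/ceh-38, the paracaspase gene and a ONECUT homeobox gene, the summit was 48 bp inside ceh-38 and 274 bp from malt-1.

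Across gene lists the shares differed widely. Of all 17242 autosomal coding genes, 1465 (8.50%) had a shared peak, and of the 4764 with a divergent partner within 2000 bp, 1404 (29.5%) did. The second number is the fairer background, since the lists differ in how many members have such a partner. The lists were not matched for the spacing between starts, on which the share with a shared peak depended. Among cytosolic ribosomal protein genes 49 of 79 had a divergent partner and 47 of these 49 a shared peak (95.9%, interval 86.3 to 98.9). The 2 without were rpl-41.1 and rps-5. Pooled signals at the 47 genes ran from 66.5 through a median of 321 to 1309, and 36 of the 47 genes had a peak among the strongest 1326. The replicate medians were 177 and 163, above the medians of all shared peaks in both. The summit was nearer the start of the ribosomal protein gene in 18 of the 47, so in most it was nearer the partner's start.

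Other lists of protein synthesis, folding and turnover were above the background too. Translation initiation and elongation factors had a shared peak in 16 of 20 divergent genes (80.0%, interval 58.4 to 91.9), and proteasome subunits in 19 of 22 (86.4%, interval 66.7 to 95.3). The strongest proteasome peak was hsp-110/rpn-3, which joins a chaperone gene to a lid subunit gene, with 203 and 205 in the replicates. pas-4/rpb-3, a core particle gene facing an RNA polymerase II subunit, had 183 and 147, and rpt-2/aps-1, with an ATPase of the regulatory particle, had 176 and 113. Chaperones had 20 of 31 (64.5%), with hsp-60 and cct-1 the strongest, and aminoacyl-tRNA synthetases 10 of 15 (66.7%), led by sars-1 at 164 and 140. Mitochondrial ribosomal proteins had 15 of 27 (55.6%, interval 37.3 to 72.4) with a median pooled signal of 126, below the 146 over all genes with a shared peak. Their strongest was mrps-7 at 273 and 189.

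Genes of RNA processing and the nucleus were similar. Splicing factors had 21 of 28 divergent genes with a shared peak (75%, interval 56.6 to 87.3), with prp-40 and rsp-2 among the strongest. The splicing gene lsm-3 was reached only by the peak Y62E10A.20/Y62E10A.23, whose summit was 935 bp from its start. RNA polymerase and general transcription genes had 11 of 14, nuclear pore genes 10 of 17 (npp-3 the strongest, at 261 and 219) and DNA replication genes 9 of 12, where rfc-4 led. The summit was nearer the gene's own start in 7 of the 9 replication genes and 14 of the 19 proteasome genes, and in 6 of the 20 chaperone genes. Respiratory chain genes had 14 of 19 (73.7%), with atp-1 and atp-3 of the ATP synthase strongest, the summits 7 and 27 bp from their starts. Ubiquitin enzymes had 6 of 9, small GTPases of trafficking 7 of 10, vacuolar ATPase subunits 3 of 7 and mitochondrial import genes 2 of 3, the last 2 with intervals that included the background. Both divergent bZIP genes, zip-2 and zip-4, had one, the first 10 bp from its start with 181 and 127.

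Large families with roles in sensing, defence and the cuticle were below the background. Chemoreceptors had 12 of 279 divergent genes with a shared peak (4.30%, interval 2.48 to 7.37), C-type lectins 3 of 79 (3.80%, interval 1.30 to 10.6) and F-box genes 11 of 95 (11.6%, interval 6.59 to 19.6). The strongest chemoreceptor peak, R08F11.4/srw-7 with 415 and 283, lay 570 bp from srw-7 and 164 bp from its partner. Histone genes had 9 of 62 (14.5%, interval 7.83 to 25.3), although most of them lie in divergent pairs. These 9 genes fell at only 5 peaks, and by pairs of histone genes it was 4 of 30. The interval over genes counts the same peak more than once and is too narrow, so it does not settle whether histone genes were below the background. Collagens had 5 of 35, cytochrome P450 genes 2 of 15, UDP-glucuronosyltransferases 3 of 18, glutathione transferases 1 of 9, neuropeptides 1 of 12 and homeobox genes 1 of 8. Nuclear hormone receptor genes had 7 of 43 (16.3%, interval 8.12 to 29.97), with nhr-68 at 182 and 151, nhr-232 at 162 and 144 and nhr-47 at 157 and 141. For the nuclear hormone receptors, cytochrome P450 genes, both transferase lists, neuropeptides and homeobox genes the interval included the background of 29.5%. The summit was 15 bp from nhr-47 and 865 bp from nhr-232. Histone genes exist in near-identical copies, so reads may not be placed uniquely there. How uniquely reads can be placed in any of these families was not measured.

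**Figure D4:**
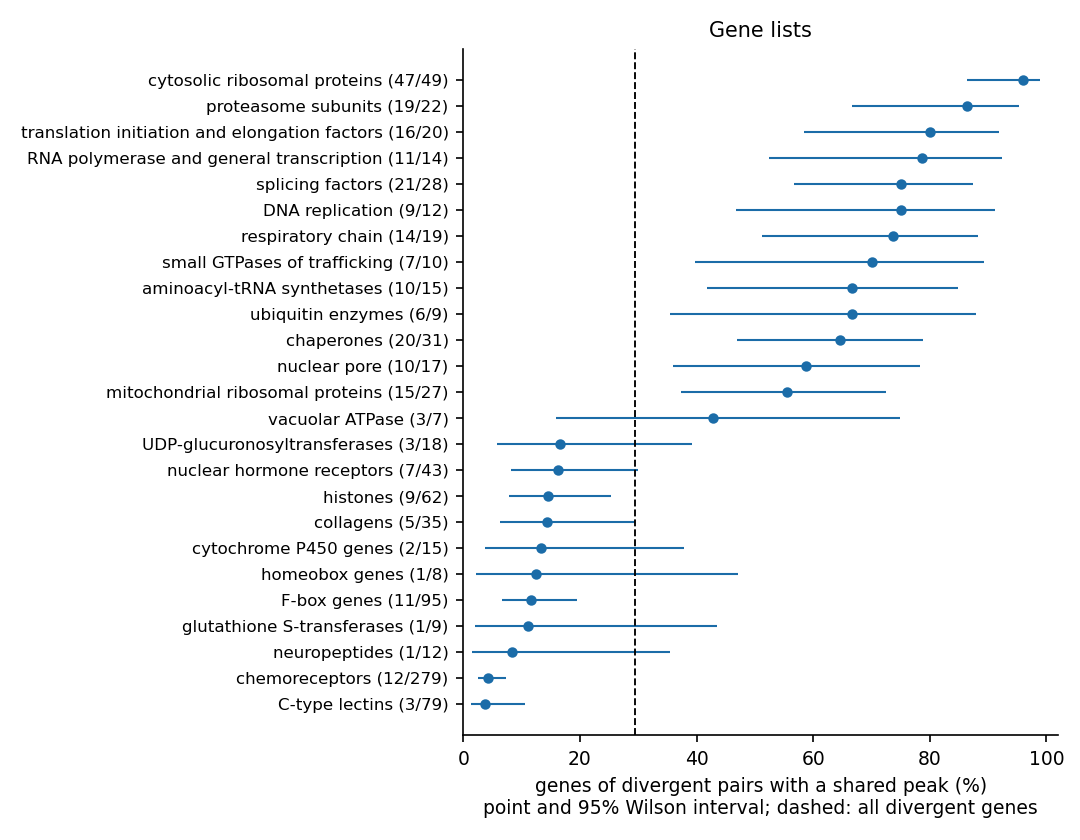
Share in percent of the divergent genes of each list that have a shared peak, with 95% Wilson intervals and the counts beside the names, for lists with at least 5 divergent genes. The dashed line is the share over all divergent autosomal genes (29.5%). Genes of the same pair can share a peak, so the intervals count some peaks more than once. Cytosolic ribosomal proteins are highest at 95.9%, and C-type lectins and chemoreceptors lowest at 3.80% and 4.30%.

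In a few pairs both genes belonged to 1 list. There were 138 such divergent pairs over all lists, and 13 had a shared peak, a share below that over all divergent pairs. The 3 pairs of ribosomal protein genes all had one. rps-10/rpl-24.1 had signals of 370 and 236, rps-14/rpl-36 had 141 and 163, and rpl-39/rps-30 had 149 and 146. In rpl-39/rps-30 the summit was 252 and 247 bp from the starts, almost at the midpoint. Both pairs of splicing genes had one as well, rsp-2/rsp-1 with 175 and 188 and snr-3/rsp-5 with 118 and 123. Of 30 pairs of histone genes 4 had one, his-67/his-68 with 116 and 137, his-31/his-32 with 104 and 66.8, and his-4/his-3 and his-61/his-62 below these. The heat shock pair hsp-16.2/hsp-16.41 had 52.6 and 49.99, the F-box pair fbxa-76/fbxa-77 105 and 79.9, and the cytochrome P450 pair cyp-33C6/cyp-33C7 78.2 and 60.6. None of the 53 chemoreceptor pairs and none of the 14 C-type lectin pairs had a shared peak.

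The chromosomes differed in how many of their divergent pairs were marked. The share was 40.3% (interval 35.5 to 45.2) of 385 pairs on III, 38.1% (interval 33.6 to 42.8) of 428 on I, 28.2% of 440 on IV, 26.2% of 466 on II and 20.5% (interval 17.6 to 23.8) of 663 on V. Chromosome V carries many of the chemoreceptor genes. The median pooled signal differed little, from 136 on V to 149 on I. Of the shared peaks 46.8% were in the middle stretch of their chromosome when each was cut into 3 equal parts, against 40.6% of all divergent pairs and 48.4% of single-strand promoter peaks. Starts of non-coding genes lay within the same window of 116 shared peaks (16.02%) and 289 single-strand promoter peaks (16.9%), and snoRNA starts within that of 25 (3.45%) and 45 (2.63%).

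The summits were rich in G and C and flanked by poor stretches. Mean G+C from 50 bases left to 50 bases right of the summit was 45.8% (SD 7.17) for shared peaks, 44.8% (SD 6.86) for single-strand promoter peaks and 33.7% (SD 8.40) at the midpoint of the 1682 divergent pairs without a summit. With 100 bases on either side the order of the first 2 turned, and shared peaks were lower by 1.58 percentage points. The profile showed where: in 21 bases at the summit G+C was 49.3% at shared peaks and 46.6% at single-strand promoter peaks, and 120 bp to the right 29.4% and 34.5%. At pairs without a summit it was between 32.8% and 34.9% from 160 bp on the left of the midpoint to 160 bp on the right. The CpG dinucleotide occurred 6.87 times in the narrower window at shared peaks, 5.61 times at single-strand promoter peaks and 3.02 times at pairs without a summit. A midpoint is not aligned on a peak as a summit is, so a local maximum in such pairs would be averaged out. The contrasts with pairs without a summit are therefore not like for like. G+C can affect library preparation and mapping, and its part in where peaks were called was not tested.

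**Figure D5:**
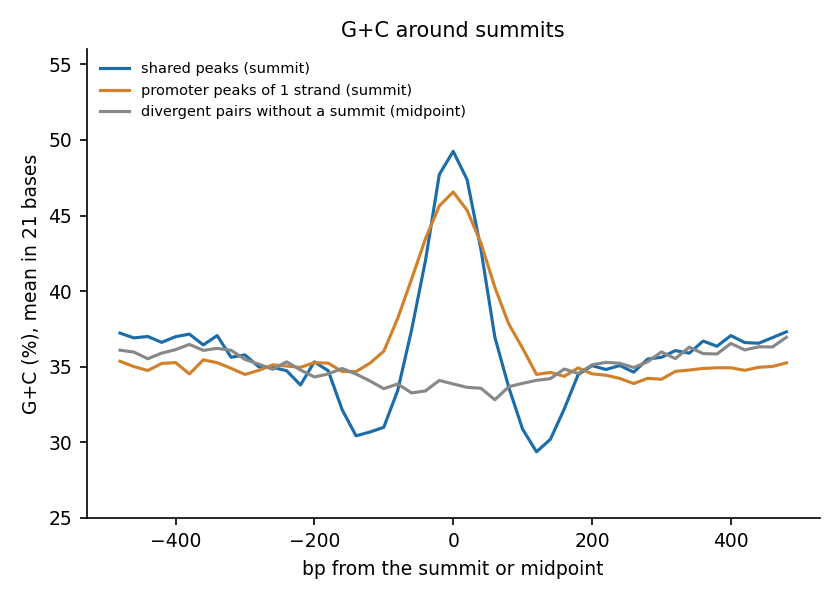
Mean G+C in percent in 21 bases against bp from the summit, for shared peaks and single-strand promoter peaks, and from the midpoint for divergent pairs without a summit. Shared peaks have the higher and narrower maximum (49.3% at the summit) and fall to 29.4% at 120 bp, below the other curves.

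Of the 13 motifs searched on both strands of the same window, the GA repeat differed most from the other promoter peaks in percentage points, though not as a ratio. GAGAGA was present at 17.5% of shared peaks (interval 14.9 to 20.5), 28.7% of single-strand promoter peaks (interval 26.6 to 30.9) and 5.65% of pairs without a summit. In a window of the same length centred 140 bp upstream of every autosomal coding start it was present at 8.43%. The E-box CACGTG, bound by bHLH factors, was present at 2.21% of shared and 4.56% of single-strand promoter peaks, with 1.84% of all promoters. The nuclear receptor core site AGGTCA was present at 2.07% of shared peaks (interval 1.26 to 3.39) and 3.74% of single-strand ones (interval 2.94 to 4.75), with 3.02% of all promoters and 2.62% of pairs without a summit. The TATA-box letters TATAAA were present at 3.59%, 4.62% and, in pairs without a summit, 14.9%. A run of 6 T was present at 25.6%, 21.5% and 47.3%. A match is a description of the letters and not a site, and longer windows hold more matches. Pairs without a summit were read at their midpoint, which is not aligned on a peak, so contrasts with them are not like for like.

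Words of 8 letters were ranked by their share at shared peaks minus their share at divergent pairs without a summit. The ranking used both of these sets and a window of 50 bases on either side, so the shares in both and the nearness of the words to the summits follow from it and are no finding. Only the shares at single-strand promoter peaks and at all promoters were not used, and all promoters include those of the shared peaks. A contrast of either with shared peaks still has 1 side that was picked to be high. The ranking therefore favours a higher share at shared peaks in these contrasts too. The highest was GCAAACAC, at 69 shared peaks (9.53%), 4.56% of single-strand promoter peaks, 1.61% of pairs without a summit and 1.17% of all autosomal promoters. It occurred at 1 of the 45 shared peaks whose nearest genes include a cytosolic ribosomal protein gene and at 68 of the other 679. It is shown in 40 bases at 3 strong peaks that hold it, with the word in capitals. Of these, rpl-15/K11H12.8 is the 1 peak of a ribosomal protein gene.
C17H12.2/vha-8 (chrIV:6790578-6790617, plus strand): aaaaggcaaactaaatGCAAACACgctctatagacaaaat
rpl-15/K11H12.8 (chrIV:654919-654958, plus strand): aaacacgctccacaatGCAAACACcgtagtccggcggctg
imp-2/enpl-1 (chrIV:11119253-11119292, minus strand): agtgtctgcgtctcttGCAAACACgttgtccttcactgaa

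The second word was GCGAGACC, at 55 shared peaks (7.60%), 2.05% of single-strand promoter peaks and 0.892% of pairs without a summit. The fourth, CGAGACCC, overlaps it by 7 letters. Shared peaks with the second word had median signals of 120 in replicate 1 and 100.1 in replicate 2, and those without it 77.0 and 66.7. This was the largest contrast among the 10 highest words, and not all went that way. With the first word, GCAAACAC, the medians were 76.4 and 58.5, and without it 78.8 and 69.1. The second word occurred at 11 of the 45 shared peaks whose nearest genes include a cytosolic ribosomal protein gene (24.4%) and at 6.48% of the other 679. It is shown at strong peaks, among them those of fib-1, the gene of the nucleolar protein fibrillarin, and htz-1, the gene of the histone variant H2A.Z.
fib-1/mut-15 (chrV:15002265-15002304, plus strand): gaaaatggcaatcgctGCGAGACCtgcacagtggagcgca
wapl-1/htz-1 (chrIV:4445874-4445913, plus strand): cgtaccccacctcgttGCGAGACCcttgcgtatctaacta
npp-3/top-2 (chrII:11874876-11874915, plus strand): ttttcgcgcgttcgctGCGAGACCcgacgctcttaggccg
R05D3.8/rfp-1 (chrIII:8358391-8358430, minus strand): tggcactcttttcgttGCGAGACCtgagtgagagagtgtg

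The third word was GCGCTCCA, at 53 shared peaks (7.32%), 3.39% of single-strand promoter peaks and 1.01% of pairs without a summit. It is shown at 3 strong peaks, of which the last 2 are also among the whole spaces above.
rpl-12/lin-54 (chrIV:13240699-13240738, minus strand): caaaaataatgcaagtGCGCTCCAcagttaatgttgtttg
Y62E10A.20/Y62E10A.23 (chrIV:13386267-13386306, plus strand): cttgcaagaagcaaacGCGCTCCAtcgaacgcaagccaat
polh-1/rps-22 (chrIII:1950386-1950425, plus strand): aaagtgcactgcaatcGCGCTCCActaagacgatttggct

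The tenth word was CGTAAATC, at 42 shared peaks (5.80%) and 1.99% of single-strand promoter peaks. It occurred at 8 of the 45 peaks of ribosomal protein genes (17.8%) and at 5.01% of the others. In both stretches shown, each next to a ribosomal protein gene, the letters gac follow it.
rpl-20/Y17G9B.5 (chrIV:4750086-4750125, minus strand): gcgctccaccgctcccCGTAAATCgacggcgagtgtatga
ppm-1.H/rpl-34 (chrIV:12268513-12268552, minus strand): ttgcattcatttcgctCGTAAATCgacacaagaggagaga

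The fifth word, AGACGCAG, was the other way round, at 6.91% of shared peaks (interval 5.28 to 8.99) and 12.4% of single-strand promoter peaks (interval 10.9 to 14.1). It was found at none of the 45 peaks of ribosomal protein genes, and the sixth and seventh words overlap it by 7 letters each. Strong peaks that hold it are shown for comparison with the words above.
T26A8.4/pdtf-1 (chrIV:8432933-8432972, plus strand): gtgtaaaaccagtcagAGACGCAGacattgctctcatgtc
R107.5/cls-2 (chrIII:9054087-9054126, plus strand): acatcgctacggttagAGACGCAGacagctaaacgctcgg
drr-2/set-16 (chrIII:13643697-13643736, plus strand): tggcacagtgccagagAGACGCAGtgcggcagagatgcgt

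At least 1 of the 10 highest words was present at 306 shared peaks (42.3%), 29.3% of single-strand promoter peaks, 20.5% of all 6626 peaks and 6.06% of divergent pairs without a summit. The first and the last of these shares restate how the words were picked. All 6626 peaks include the shared peaks, and the contrast with single-strand promoter peaks has 1 side picked to be high.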

How the data were processed

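Chromatin immunoprecipitation and sequencing of tagged NHR-129 gave peak lists for 2 biological replicates of 1 group. Per the labels, library fragments were 150 to 350 bp long. The aligner, the peak caller with its version and the depth of sequencing are not stated in the labels or files, so no value could be set against depth. Per the text deposited beside the lists, the authors made relaxed lists for each replicate and for the pooled alignments against a control, each of 30000 calls, and drew the thresholded list from these 3. The signal deposited per peak is the authors' caller score. The ce11 lists were used, and the ce10 lists were not used here. The sequence of 1 space is not reported here.

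Summits came from the deposited offset, gene models from Ensembl release 115 (WBcel235) and sequence from RefSeq's copy of the same assembly. Coordinates are 1-based. A replicate's strongest call sharing 1 bp or more with a peak was its match. Divergent pairs were neighbouring coding starts facing apart with 1 to 2000 bp between them. G+C, 13 motifs and words of 8 letters were read from 50 bases left to 50 bases right of the summit. Shares have 95% Wilson intervals. The functions were tested on simulated data. Python 3.11.15, numpy 2.4.6, pandas 2.3.3, scipy 1.17.1 and matplotlib 3.10.9 were used.

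The shared peaks and the 27 gene lists, made from gene names, were chosen with earlier results of these data known. The named genes are those at the 20 strongest shared peaks, up to 3 per list, pairs within 1 list, the 5 largest differences in rank, the 5 strongest of the pairs with 2 peaks and the 3 shortest and longest spaces. Other names were picked after their values were seen, as were the ranking of words and the letters before starts. The name patterns for chemoreceptors and RNA polymerase were corrected after first use, since they had taken in signal recognition, serpin and replication genes. The alternatives changed the promoter window, gene start, peak list, summit, sequence window and overlap, and left out each replicate.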

Additional observations from a re-analysis of the deposited data

How the results depend on the processing

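The 10 main measures and the 13 motif shares were recomputed with other settings, one at a time. Gene lists, orientations, chromosomes and words were not. Values were held against the SD between the lists of either replicate alone, which was small, so shifts of little size passed it. The strongest 50 percent of peaks held 434 shared peaks. Other settings gave 490 to 1050.

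With windows of 500 bp, 2000 bp, starts of any coding transcript and the strongest 50 percent of peaks, in this order, the share of promoter summits that were shared was 24.6, 34.1, 27.2 and 32.4%, the density ratio 4.65, 2.94, 3.64 and 4.35, the share of divergent pairs with a summit 29.1, 29.8, 28.9 and 17.9%, and the distance to the nearer start 123.5, 161.5, 143 and 152 bp. For 2000 bp, any transcript and the strongest 50 percent, the signal ratio was 1.12, 1.15 and 1.15 and the rank correlation 0.86, 0.86 and 0.86. The largest distance allowed between the starts of a pair moved along with windows of 500 and 2000 bp. Their shares of divergent pairs are therefore over other sets of pairs. The share in the central 50 percent of the space was 60.7% with 500 bp, where only shorter spaces were counted, and 63.3% for the strongest peaks. Summits within 100 bp in both replicates left 99.2% of shared peaks.

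With the strongest calls of 1 replicate alone there were 704 to 710 shared peaks, 29.1 to 29.8% of promoter summits, a density ratio of 3.72 to 3.85, 28.6 to 28.9% of pairs, a signal ratio of 1.13, 99.3 to 99.7% called in both replicates, a rank correlation of 0.88 to 0.89, 141.5 to 143 bp to the nearer start, 61.2 to 62.7% in the central 50 percent, and a G+C difference of 0.64 to 0.91 percentage points.

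The G+C difference between shared and single-strand promoter peaks was 0.95 points with 50 bases on either side of the summit, 2.34 with 25 and -1.58 with 100, where it turned. G+C was higher at the summit of shared peaks and lower beside it. Overlapping peaks merged and centres of intervals in place of summits gave 713 and 722 shared peaks and moved no share, ratio, correlation, distance or difference by more than that SD. No depth was given, so none of these limits could be set against it.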
